A study of Homo sapiens with 6 samples.

Results

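Interferon regulatory factors (IRFs) are transcription factors that carry messages from interferon receptors and from sensors of foreign nucleic acid to DNA. Their DNA-binding domain reads GAAA repeats, found as the interferon-stimulated response element (ISRE) in promoters of many interferon-induced genes. STAT dimers downstream of the interferon gamma receptor read a different element, the gamma-activated site (GAS). To determine how transcripts of this family differ when MUC1 is silenced, the rows of 8 family genes were taken by symbol from the count table: IRF1, IRF2, IRF3, IRF4, IRF5, IRF7, IRF8 and IRF9. These are 8 of the 37887 rows of the table, of which 24406 held at least 1 count.

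RNA-seq counts came from the cell line MDA-MB-436, derived from a triple-negative breast cancer and mutant for BRCA1, with a stable, tetracycline-inducible MUC1 shRNA vector in every library. The 3 control libraries were from cells given 0.1% DMSO as vehicle, and the 3 shMUC1 libraries from cells given 500 ng/ml doxycycline to induce the hairpin. Titles name the former as control shRNA, but the treatment field and the design give vehicle on the same inducible cells, which was taken as correct. Doxycycline without the MUC1 hairpin was not analysed here, so doxycycline itself and MUC1 silencing cannot be told apart. The labels give no duration for this line and describe cells cultured in triplicate, so p-values measure the spread between these cultures of a single line.

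Library totals ran from 18678307 to 27825546 counts. The smallest was shMUC1 replicate 3. MUC1 itself had 93, 84 and 102 counts in control and 72, 51 and 34 in shMUC1 libraries, without overlap on the scale of CPM (counts per 1000000, with library sizes scaled by TMM). Its log2 fold change was -0.84 (SE 0.214, Benjamini-Hochberg adjusted p = 0.00119 by the edgeR quasi-likelihood test), so residual MUC1 transcript was present in every shMUC1 library. Of the hormone receptor genes that triple-negative lines lack, ESR1 did not exceed 12 counts and PGR did not exceed 4 counts in any library. ERBB2, which is not amplified in triple-negative lines, had 715 to 1142 counts per library, a mean of 4.33 CPM per kilobase of merged exons in control and 3.77 in shMUC1 libraries.

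Reference sequence placed a GAS-type word, TTC then any 3 bases then GAA, before the RefSeq start sites of IRF1 and IRF9. RefSeq promoters (250 bases before to 50 bases after a start site, GRCh38.p14) were found for 5 of the 8 genes, namely IRF1, IRF4, IRF5, IRF8 and IRF9. Both words are given here because they are the GAS-type words matched in the windows searched, with the match in capitals. No window was found for IRF2, IRF3 and IRF7. The IRF8 windows begin at chr16:85902580, inside a gene annotated from chr16:85898803, so sequence before that start was not searched. The IRF1 word lay 124 to 116 bases before the start site on the minus strand at chr5:132490879-132490907. The IRF9 word lay 63 to 55 bases before the start site on the plus strand at chr14:24161192-24161220. IRF9 is annotated from chr14:24161053, so its word lies inside the annotated gene, before the later RefSeq start used here.
IRF1: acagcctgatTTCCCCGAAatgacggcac
IRF9: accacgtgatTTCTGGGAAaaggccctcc
This palindromic word occurs in 7.66% of 35116 reference promoters of that length. An ISRE-type word, GAAA then any 2 bases then GAAA on either strand, occurs in 3.57% of them and was not matched in any of the windows of these 5 genes, which says only that those letters are not in those windows. A match is a description of sequence and was not tested for binding.

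Between the groups, 4 of the 7 testable IRF genes passed an adjusted p under 0.05 and are referred to as called. IRF2, IRF3 and IRF7 were higher and IRF8 was lower in shMUC1 cells, whereas IRF1, IRF5 and IRF9 were not called. IRF4 had too few counts to be tested. Many transcripts differed between the groups: of 15355 genes tested, 25.2% were called higher, 23.6% lower and 48.7% in either direction. The IRF calls are thus near the background share, and the number of calls says nothing particular about the family. Likewise, CPM values of the groups did not overlap for the same 4 IRF genes, and for 54.8% of all genes tested. No IRF gene reached a fold change over 2, which together with the adjusted p held for 5.95% of genes tested, and estimates in all alternative fits stayed between -0.91 and 0.63 on the log2 scale.

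**Figure D1:**
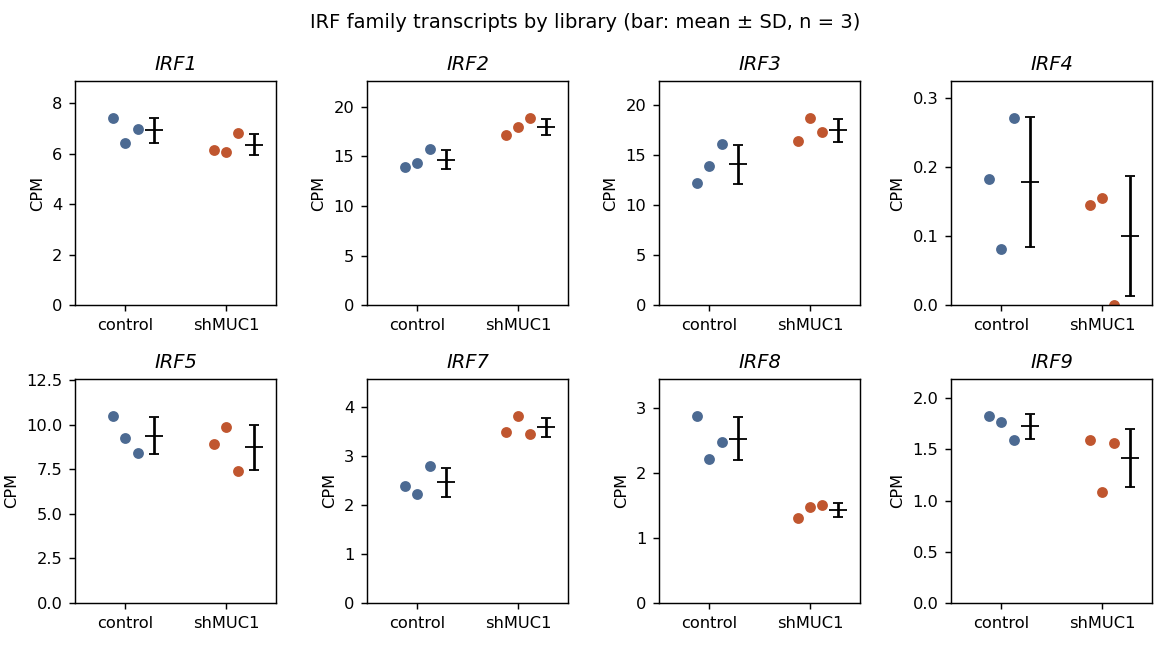
CPM (vertical axes, each starting at 0) of the 8 IRF genes in the 3 control libraries (blue) and 3 shMUC1 libraries (orange), replicates 1 to 3 from left to right, with the mean ± SD in black. Control and shMUC1 points do not overlap for IRF2, IRF3, IRF7 and IRF8, while for IRF1, IRF5 and IRF9 they do, and IRF4 lies at or below 0.271 CPM throughout.

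IRF2 and IRF3 gave the highest levels of the family once transcript length was taken into account. As the mean of all 6 libraries, in CPM per kilobase of merged exons, IRF2 stood at 5.23 (range 4.48 to 6.04), IRF3 at 4.16 (range 3.21 to 4.92) and IRF5 at 2.07 (range 1.70 to 2.40). IRF7 followed at 1.15 (range 0.844 to 1.45), IRF1 at 0.851 (range 0.777 to 0.947), IRF9 at 0.414 (range 0.287 to 0.481), IRF8 at 0.383 (range 0.252 to 0.557) and IRF4 at 0.0236 (range 0 to 0.0460). The median tested gene stood at 4.01 on this scale, so only IRF2 and IRF3 lay above it by the mean of all 6 libraries. IRF3 had a mean of 3.71 in control and 4.61 in shMUC1 libraries. Over all 6 libraries the ranges of the neighbours IRF2 and IRF3, IRF7 and IRF1, and IRF9 and IRF8 overlapped. Within libraries IRF2 stood above IRF3 in 6 of 6. IRF7 stood above IRF1 in 2 of 3 control libraries, with overlapping ranges, and in 3 of 3 shMUC1 libraries, where the ranges (1.31 to 1.45 and 0.777 to 0.875) did not overlap. IRF9 stood above IRF8 in 1 of 3 control and 3 of 3 shMUC1 libraries, with ranges that overlapped in both groups. Length per longest coding transcript, an alternative chosen after seeing the data, put IRF3 (9.06) before IRF2 (7.08) and IRF1 (1.85) before IRF7 (1.47) and kept the other positions.

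IRF1 was the first family member described and activates genes of antigen presentation, guanylate binding and tryptophan metabolism. Its gene lies at chr5:132481609-132490798 on the minus strand. IRF1 stood at 7.39, 6.40 and 6.97 CPM in control and at 6.15, 6.06 and 6.83 CPM in shMUC1 libraries, or 6.92 ± 0.494 and 6.35 ± 0.419 CPM (SD, n = 3). The groups overlapped, since shMUC1 replicate 3 lay above control replicate 2. The log2 fold change was -0.13 (SE 0.138, 95% interval -0.41 to 0.15), with an adjusted p of 0.465 by edgeR, and leaving out single libraries gave -0.18 to -0.08. No difference between the groups was detected, and the lower end of the interval stands at -0.41 on the log2 scale. On the opposite strand C5orf56 shares 1716 exon bases with IRF1, but had only 22, 21 and 11 counts in control and 27, 22 and 23 in shMUC1 libraries. Strand handling in counting is not given in the sources used here, so reads in the shared bases cannot be told apart.

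IRF2 binds the same GAAA words as IRF1 and is classically described as competing with it. IRF2, at chr4:184387713-184474580 on the minus strand, stood at 14.0, 14.3 and 15.8 CPM in control and at 17.1, 17.9 and 18.8 CPM in shMUC1 libraries. Every shMUC1 library lay above every control library, with means of 14.7 ± 0.959 and 17.9 ± 0.848 CPM (SD, n = 3). IRF2 rose by 0.29 on the log2 scale (SE 0.0937, 95% interval 0.10 to 0.48), with an adjusted p of 0.0109 by edgeR. Of the called IRF genes it was the one whose call held in every alternative fit, with adjusted p from 0.00968 to 0.0467.

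The balance of IRF1 to IRF2 can be read within each library without scaling between libraries. The ratio of IRF1 to IRF2 counts was 0.529, 0.448 and 0.442 in control and 0.359, 0.338 and 0.363 in shMUC1 libraries, or 0.473 ± 0.0487 and 0.354 ± 0.0132 (SD, n = 3). All 3 shMUC1 ratios were below every control ratio, where CPM of single genes did not overlap for 54.8% of genes tested. The ratio was not tested, and its numerator was not called while its denominator was.

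IRF3 is a constitutively made factor that is phosphorylated after nucleic acid sensing and switches on interferon beta. IRF3, at chr19:49659569-49665875 on the minus strand, stood at 12.2, 14.0 and 16.1 CPM in control and at 16.4, 18.7 and 17.3 CPM in shMUC1 libraries. The groups did not overlap, although control replicate 3 came close to shMUC1 replicate 1. Means were 14.1 ± 1.97 and 17.5 ± 1.13 CPM (SD, n = 3), and IRF3 rose by 0.31 on the log2 scale (SE 0.101, 95% interval 0.10 to 0.51, adjusted p = 0.0117 by edgeR). The call rested on single libraries: without control replicate 1 the log2 fold change was 0.22 (adjusted p = 0.101) and without shMUC1 replicate 2 it was 0.26 (adjusted p = 0.0742). BCL2L12 shares 734 exon bases with IRF3 on the opposite strand, and at 385, 404 and 457 counts in control against 461, 468 and 346 in shMUC1 libraries it was not called (log2 fold change 0.04, adjusted p = 0.740).

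IRF7 is the interferon-inducible relative of IRF3 and amplifies interferon alpha production. IRF7, at chr11:612553-615999 on the minus strand, stood at 2.37, 2.22 and 2.79 CPM in control and at 3.47, 3.81 and 3.44 CPM in shMUC1 libraries. The groups did not overlap, at 2.46 ± 0.295 and 3.57 ± 0.202 CPM (SD, n = 3), from only 52 to 98 counts per library. IRF7 rose by 0.54 on the log2 scale (SE 0.207, 95% interval 0.12 to 0.96, adjusted p = 0.0301 by edgeR). DESeq2 gave the same size and lost the call (adjusted p = 0.0513). The call was also lost without control replicate 1 (adjusted p = 0.0680), control replicate 2 (0.0948), shMUC1 replicate 1 (0.0531) or shMUC1 replicate 2 (0.0860), with log2 fold changes of 0.51, 0.47, 0.56 and 0.49. The ratio of IRF7 to IRF3 counts was 0.195, 0.159 and 0.173 in control and 0.211, 0.204 and 0.199 in shMUC1 libraries. The groups did not overlap, but control replicate 1 came close to shMUC1 replicate 3. CPM of single genes did not overlap for 54.8% of genes tested, and the ratio was not tested.

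IRF5 acts downstream of Toll-like receptors in inflammatory cytokine induction. IRF5, at chr7:128937612-128950035 on the plus strand, stood at 10.5, 9.24 and 8.44 CPM in control and at 8.90, 9.90 and 7.42 CPM in shMUC1 libraries. The groups were interleaved, with a log2 fold change of -0.09 (SE 0.127, 95% interval -0.35 to 0.17, adjusted p = 0.594 by edgeR). Without shMUC1 replicate 3 the sign turned, at 0.0085.

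IRF8 and IRF4 are best known from blood cell lineages, IRF8 in monocytes and dendritic cells and IRF4 in lymphocytes and plasma cells. IRF8, at chr16:85898803-85922609 on the plus strand, stood at 2.87, 2.22 and 2.48 CPM in control and at 1.30, 1.48 and 1.51 CPM in shMUC1 libraries. Every control library lay above every shMUC1 library, at 2.52 ± 0.331 and 1.43 ± 0.109 CPM (SD, n = 3), from 28 to 64 counts per library. IRF8 fell by 0.82 on the log2 scale (SE 0.263, 95% interval -1.36 to -0.29, adjusted p = 0.00913 by edgeR), and its absolute log2 fold change exceeded that of 90.3% of genes tested. Without control replicate 1 it was -0.72 (adjusted p = 0.0520). In bulk RNA, fewer cells expressing a gene and less RNA per cell cannot be told apart. Of 12 blood cell markers, 3 (MS4A1, CD3E and SPI1) were at 0 in every library, and the list summed to 4.15 to 4.64 CPM in control and 8.65 to 11.1 CPM in shMUC1 libraries. CD14 led that sum, with 70, 67 and 78 counts in control and 174, 196 and 92 in shMUC1 libraries, and CSF1R had 2, 9 and 11 against 37, 43 and 37. Thus the summed markers were higher in the group where IRF8 was lower, and their part in the result was not tested.

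IRF4, at chr6:391739-411447 on the plus strand, had 4, 2 and 7 counts in control and 4, 4 and 0 in shMUC1 libraries and did not pass the filter on low counts. Its levels were 0.179 ± 0.0945 and 0.100 ± 0.0868 CPM (SD, n = 3). A count of 0 in shMUC1 replicate 3 allows up to 3 counts, or 0.161 CPM, by counting error alone. This limit takes each count as independent and would be higher if both reads of a pair were counted, for which the largely even small counts give a sign.

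IRF9 joins STAT dimers in ISGF3, the complex that carries type I interferon signals to ISRE words. IRF9, at chr14:24161053-24166565 on the plus strand, stood at 1.82, 1.77 and 1.59 CPM in control and at 1.59, 1.09 and 1.56 CPM in shMUC1 libraries. The groups met at shMUC1 replicate 1 and control replicate 3, and the log2 fold change was -0.29 (SE 0.295, 95% interval -0.89 to 0.31, adjusted p = 0.441 by edgeR). The gene had 28 to 44 counts per library, and no difference was detected. IRF9 shares 1838 exon bases with AL136295.5 on the same strand in the annotation, so its count is uncertain. Its partner STAT2 had 1110 to 1294 counts in control and 850 to 1384 in shMUC1 libraries and was not called (log2 fold change -0.02, adjusted p = 0.855). The ratio of IRF9 to STAT2 counts was 0.0352 ± 0.00353 in control and 0.0292 ± 0.00655 in shMUC1 libraries (SD, n = 3) and was not tested.

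**Figure D2:**
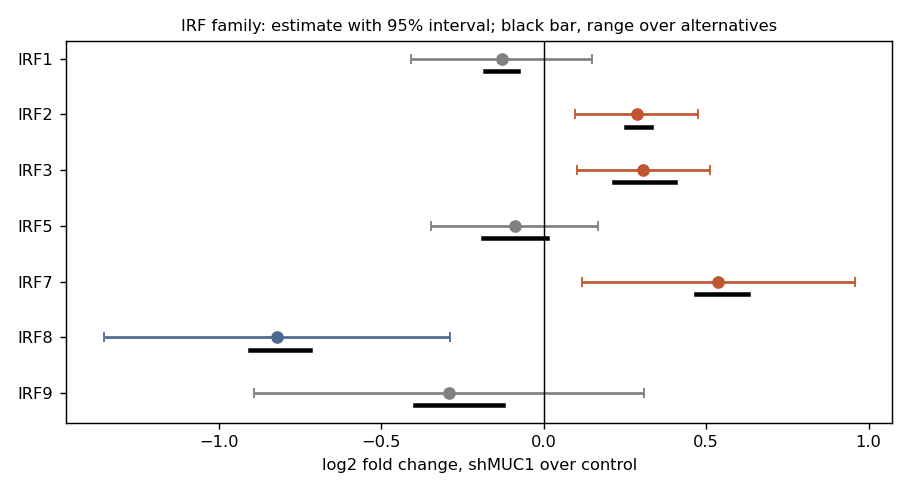
Log2 fold change (horizontal axis, shMUC1 over control) of the 7 tested IRF genes, with the edgeR 95% interval (coloured, orange called higher, blue called lower, grey not called) and the range over alternative fits (black bars). IRF8 is the lowest at -0.82 and IRF7 the highest at 0.54, the interval of IRF1 spans 0, and of the black bars that of IRF5 reaches across 0.

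**Figure D3:**
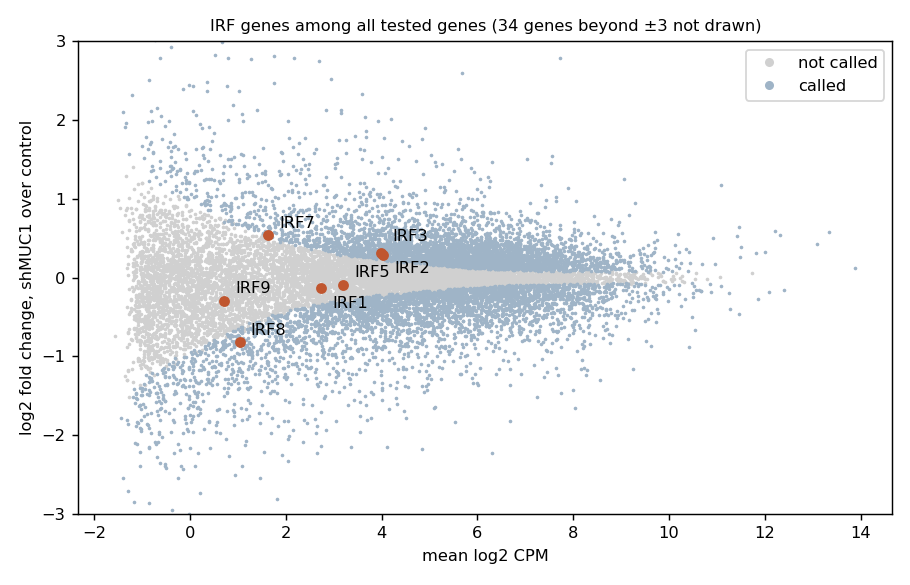
Mean log2 CPM (horizontal axis) against log2 fold change (vertical axis, shMUC1 over control) of the 15355 genes tested, pale blue where called, with the 7 tested IRF genes in orange. IRF7, IRF8 and IRF9 lie at the left, where few counts leave wide uncertainty, and 34 genes beyond 3 on the vertical scale are not drawn.

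Profiles over the 6 libraries that most resembled each called IRF gene were found by the mean absolute difference in centred log2 CPM among 12211 or 12212 genes whose mean reached 50 counts. Those nearest to IRF2 were MIS18A, LOXL2 and MUL1 (differences 0.0120, 0.0178 and 0.0195), and the median gene differed by 0.168. ZNF484, UBOX5 and CAPN15 were nearest to IRF3 (0.0385 to 0.0438, median gene 0.192). WNT9A, MCEE and HARS2 were nearest to IRF7 (0.0239 to 0.0248, median gene 0.237). FHL1, RPS6KA5 and PRR5L were nearest to IRF8 (0.0416 to 0.0456, median gene 0.336). These profiles were picked as the smallest of many differences, so their closeness follows from the choice. Shared regulation was not tested.

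IRF proteins act within a pathway, and 148 of its genes were grouped into 10 lists, of which 115 genes were tested, 24 called higher and 34 lower in shMUC1 cells. That is 50.4% of the genes tested, close to the 48.7% of all genes, with a median log2 fold change of -0.08 against 0.00058 for all genes tested. With a fold change over 2 added, 1 gene was higher and 4 were lower. Of all 15355 genes tested, 339 were higher and 575 lower past that mark, or 5.95% in either direction.

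Interferon ligands were at or near 0: IFNG had no count in any library, and IFNB1, IFNA1, IFNL1, IFNL2 and IFNL3 had at most 4 counts. IFNE had the most, with 10, 1 and 8 counts in control and 0, 5 and 4 in shMUC1 libraries, and was not tested. Of the 6 tested ligand and receptor genes 2 were lower, and 0 were higher by edgeR, DESeq2 or limma-voom, or at an unadjusted p under 0.05. By edgeR, 23.6% of all genes tested were lower and 25.2% higher. IFNGR1, the ligand-binding chain of the interferon gamma receptor, fell from 40.9 ± 0.176 to 25.0 ± 1.60 CPM (SD, n = 3), by 0.71 on the log2 scale (SE 0.0688, adjusted p = 5.26e-11 by edgeR). The other lower gene, IL10RB, had 5 to 27 counts and a log2 fold change of -1.16 (SE 0.473, adjusted p = 0.0416 by edgeR), past a fold change of 2. It was not called by DESeq2, nor without control replicate 1, control replicate 2, shMUC1 replicate 1 or shMUC1 replicate 3, which left 1 lower gene. Among the receptor kinases JAK1 rose by 0.32 and JAK2 fell by 0.22 on the log2 scale. JAK2 was not called without shMUC1 replicate 2 (log2 fold change -0.18, adjusted p = 0.0674), which left 0 lower genes in that list of 4, whereas leaving out control replicate 1 made 2.

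Upstream of IRF3 and IRF7 lie the nucleic acid sensors, adaptors and kinases. Of 17 tested, 4 were higher and 7 lower, or 64.7% called against 48.7% of all genes tested. The DNA-sensing adaptor TMEM173 (STING) fell from 14.9 to 9.21 CPM, the RNA sensor DDX58 (RIG-I) from 3.31 to 2.05 CPM and the adaptor TRAF3 from 38.1 to 25.6 CPM, with log2 fold changes of -0.69, -0.69 and -0.58. TBK1, the kinase that phosphorylates IRF3, rose from 36.6 to 43.8 CPM (log2 fold change 0.26, adjusted p = 0.00106 by edgeR). IRAK4 and TRAF6, which act downstream of Toll-like receptors, rose by 0.69 and 0.33 on the log2 scale. On the same route MYD88 rose by 0.24 and IRAK1 fell by 0.20, and both were called.

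Of 9 tested cofactors, 6 were lower, where 23.6% of all genes tested were lower, and 0 were higher by edgeR, DESeq2 or limma-voom, or at an unadjusted p under 0.05. IRF2BP2, a corepressor that binds IRF2, had 2059, 2257 and 2499 counts in control and 1421, 1228 and 1010 in shMUC1 libraries, and fell by 0.89 on the log2 scale (SE 0.0508, adjusted p = 3.04e-17 by edgeR). Thus IRF2 was higher and the transcript of this corepressor lower in the same libraries. IRF2BP1, in the same list, was not called (log2 fold change 0.10, adjusted p = 0.344 by edgeR). IRF2BPL, a relative of IRF2BP2, fell by 0.31, a call lost without control replicate 3 (-0.24, adjusted p = 0.0514) or shMUC1 replicate 3 (-0.22, adjusted p = 0.0636). TRIM28, CREBBP, EP300 and KPNA2 had smaller falls, from -0.23 to -0.09 on the log2 scale. Of the partners of IRF4 and IRF8 in blood cells, SPI1 and BATF were at 0 in every library, SPIB had at most 8 counts, IKZF1 had 4 to 10 counts and BATF2 had 10 to 21 counts. BATF3 had 93 to 170 counts per library and was not called (log2 fold change -0.11, adjusted p = 0.604 by edgeR).

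Of 11 tested genes that restrain or turn over this pathway, 3 were higher and 1 lower. The share called was 36.4%, against 48.7% of all genes tested. SOCS3, an inhibitor of cytokine receptor kinases, stood at 222, 274 and 314 counts in control and at 750, 682 and 469 counts in shMUC1 libraries. It rose from 11.2 ± 1.02 to 26.3 ± 0.983 CPM (SD, n = 3), by 1.23 on the log2 scale (adjusted p = 5.06e-14 by edgeR). The phosphatase PTPN2 and the ubiquitin ligase TRIM21 rose by 0.36 and 0.38. TRIM21 was not called without control replicate 3 (0.26, adjusted p = 0.0907), and without shMUC1 replicate 3 this list had 2 lower genes.

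Target genes did not move as a block. Of 18 tested IRF1 targets 2 were higher and 4 lower, with a median log2 fold change of -0.09, although IRF1 itself was not called. The share called was 33.3%, against 48.7% of all genes tested. WARS, the cytoplasmic tryptophanyl-tRNA synthetase, had 2677, 2734 and 2979 counts in control and 1304, 1401 and 880 in shMUC1 libraries, and fell by 1.23 (SE 0.0520, adjusted p = 4.23e-21 by edgeR). TAPBP, the class I peptide-loading factor tapasin, and LAP3, an aminopeptidase, fell by 0.52 and 0.16. APOL6 fell by 0.34, a call lost without control replicate 3 (-0.29, adjusted p = 0.0604) or shMUC1 replicate 3 (-0.23, adjusted p = 0.115). GBP3, a guanylate-binding protein with close relatives that can share reads, rose by 0.37. IDO1, CXCL9 and CXCL11 were at 0 in every library, so no statement on them is possible beyond the limit of 3 counts, with the same reservation on read pairs as for IRF4. Of 6 tested IRF2 targets 0 were called by edgeR, DESeq2 or limma-voom, and 0 had an unadjusted p under 0.05. By edgeR, 48.7% of all genes tested were called.

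Of 10 tested IRF3 and IRF7 targets 3 were higher and 4 lower, with a median of -0.41. That is 70% called, against 48.7% of all genes tested. IFIT3, OASL, IFIT2 and IFIT1, antiviral genes of the interferon response, fell by 1.09, 0.75, 0.56 and 0.48. IFIT1 was not called without control replicate 1 (-0.44, adjusted p = 0.0552), control replicate 3 (-0.40, adjusted p = 0.0833) or shMUC1 replicate 3 (-0.39, adjusted p = 0.0733). ISG15, a ubiquitin-like modifier, moved the other way, from 253, 222 and 315 counts in control to 485, 474 and 296 in shMUC1 libraries, a rise of 0.66 (adjusted p = 2.72e-06 by edgeR). TNFAIP3, an inhibitor of NF-kB signalling, rose by 0.21.

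Of 33 tested ISGF3 targets, a list that holds IRF7 and IRF9 themselves, 9 were higher and 7 lower, with a median of 0.05. The share called, 48.5%, was close to the 48.7% of all genes tested. PARP9 and DTX3L, a partnered ADP-ribosyltransferase and ubiquitin ligase whose genes lie head to head, rose by 0.83 and 0.62. IFI44 and DDX60 fell by 1.17 and 0.60. Of 10 other STAT and NF-kB factors 4 were higher and 3 lower, or 70% called. STAT6, STAT5B and REL rose by 0.40, 0.33 and 0.28, and NFKB2, RELB and RELA fell by 0.63, 0.52 and 0.29.

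**Figure D4:**
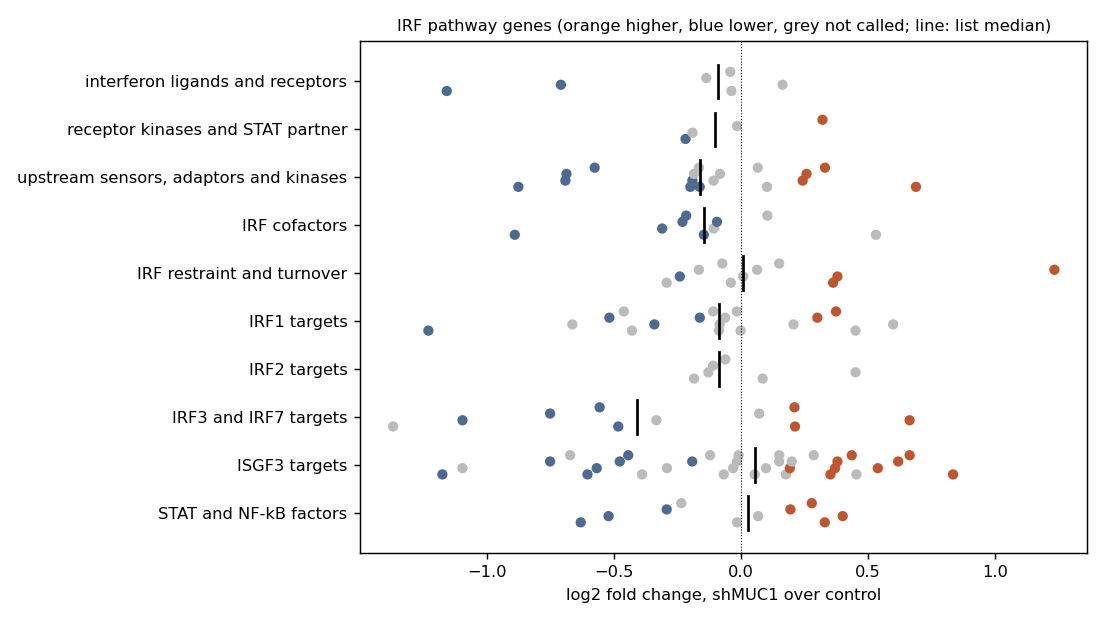
Log2 fold change (horizontal axis, shMUC1 over control) of the tested genes in the 10 IRF pathway lists, 1 point a gene, orange called higher, blue called lower, grey not called, with the list median as a black line. All lists but the IRF2 targets hold called genes, the cofactors have 6 blue and no orange points, and the IRF3 and IRF7 targets have the lowest median at -0.41.

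The ISRE-type word that IRF proteins read stands in promoters of target genes that moved in both directions. Sites with the GAAA repeats, or TTTC where they lie on the other strand, in capitals are shown for 3 named targets that were higher and 4 that were lower in shMUC1 cells, as examples chosen after their changes were seen. A single site is shown for each, although IFIT3 had 4 matches, and other named targets with matches (GBP3, TRIM21, DDX60, IFIT1 and LAP3) are not shown. In order they lie at chr1:1013377-1013406 (+), chr3:122564322-122564351 (+), chr3:122564322-122564351 (-), chr14:100375383-100375412 (-), chr6:33314076-33314105 (-), chr10:89332425-89332454 (+) and chr1:78649761-78649790 (+) in GRCh38.p14.
ISG15: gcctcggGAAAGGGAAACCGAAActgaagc
DTX3L: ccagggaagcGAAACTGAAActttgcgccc
PARP9: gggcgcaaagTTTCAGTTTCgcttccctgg
WARS: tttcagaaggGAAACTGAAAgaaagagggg
TAPBP: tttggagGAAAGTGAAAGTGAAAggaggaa
IFIT3: acagattctgTTTCAGTTTCccctcaagag
IFI44: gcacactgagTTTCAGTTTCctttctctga
The DTX3L and PARP9 lines are the same site read on opposite strands, 6 and 41 bases before the respective start sites. Of pathway genes with the word in a promoter, 41 were tested, of which 9 were higher and 12 lower (51.2% called). Of those with a promoter but without the word, 51 were tested, of which 13 were higher and 14 lower (52.9% called). A further 23 tested pathway genes had no promoter sequence and lie outside this comparison. Among them 2 were higher and 8 lower (43.5% called). Among all tested genes with a promoter sequence, 49.8% of 432 with the word and 51.7% of 10755 without it were called. The rest of the 15355 genes tested were not compared. The shares with and without the word were close, as a description of counts that were not tested.

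In 3' untranslated regions of GENCODE 29, none of the 8 IRF genes held the word ATCAGTA, which 9.94% of 19873 genes hold. Its shorter form TCAGTA, held by 30.4% of genes, was present in IRF4, IRF5, IRF8 and IRF9 and absent from IRF1, IRF2, IRF3 and IRF7. It stood in 1 of 8 IRF5 and 1 of 3 IRF8 transcripts with such a region. The longest region was only 81 bases in IRF3 and 95 in IRF7, against 1048 in IRF2 and 1330 in IRF8. Short regions leave little room for a match. Both words were chosen because an earlier look at these data tied them to lower expression. Their relation to the IRF changes was not tested.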

How the data were processed

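Total RNA was extracted from MDA-MB-436 cells and sequenced as stranded mRNA libraries (TruSeq). The submitters' processing notes name CASAVA 1.8.2, STAR 2.7.9a, featureCounts, DESeq2 1.24.0 and the build GRCh38.p7. The annotation release and the strand and read-pair settings are not given in the sources used here. Raw counts, as the authors deposited them, stand in 1 column per library under gene symbols. Between 68.8% and 70.5% of values from 1 to 20 counts were even in each library, so halved counts were tried.

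Counts of the whole table were tested with edgeR 4.0.16 (R 4.3.3): TMM, filterByExpr, quasi-likelihood F test, group as the only term, two-sided, Benjamini-Hochberg adjustment over 15355 genes, called at an adjusted p under 0.05. The step was also run on simulated data in which few genes changed. Many changed here, so that run is no check of error rates in these data. Alternatives were DESeq2 1.42.0, limma-voom (limma 3.58.1), other scaling, other low-count filters, halved counts, a replicate block, each library left out and a fold change over 2. SE values derive from the F statistic. Positions and lengths are from GENCODE 29 (98.1% of rows matched by symbol) and promoters from RefSeq. Intervals and floors cover counting error or spread between these libraries only.

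The members, the gene lists and the words searched were chosen with earlier results of these data known. Named genes are all members, MUC1, up to 6 called genes per list whose mean reached 50 counts, by largest absolute log2 fold change, the 3 nearest profiles per called member, and genes that overlap a member. IL10RB, STAT2, BATF3, IRF2BP1, MYD88, IRAK1, genes at or near 0 and markers were named outside that rule, after their values were seen. Some genes are not reported here.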

Additional observations from a re-analysis of the deposited data

How the results depend on the processing

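Few counts limit IRF4, IRF7, IRF8 and IRF9. With a fold change over 2 added, 0 IRF genes were higher and 0 lower, against 339 and 575 of all genes and 1 and 4 of the pathway genes. When genes under a mean of 50 counts were left out, 0 IRF genes were lower, because IRF8 (mean 47.2 counts) was not tested. DESeq2 gave IRF7 a log2 fold change of 0.54 (adjusted p = 0.0513). Leaving out single libraries gave 1 to 3 IRF genes higher and 0 to 1 lower, 3481 to 3651 and 3208 to 3481 of all genes, and 22 to 24 and 31 to 35 pathway genes. Log2 fold changes then ran from -0.18 to -0.08 for IRF1, 0.25 to 0.33 for IRF2, 0.22 to 0.40 for IRF3, -0.19 to 0.0085 for IRF5 (the sign turned without shMUC1 replicate 3), 0.47 to 0.63 for IRF7, -0.91 to -0.72 for IRF8 and -0.40 to -0.13 for IRF9. The cause of these shifts was not tested. For 42 genes chosen by the naming rule, MUC1 included, 579 of 588 alternative values kept direction and call, 9 lost the call and 0 reversed. Apart from MUC1, these genes were chosen because edgeR called them in these libraries, with the largest changes of their lists. Their high share of kept calls therefore follows in part from that choice. Same-numbered libraries did not deviate together (correlations 0.026, -0.018 and -0.034 over 12212 genes). No shared shift was seen, but this cannot tell whether the cultures were set up in pairs, which the labels do not give. With a replicate block 3 IRF genes were higher and 1 lower, with log2 fold changes of 0.29 for IRF2, 0.32 for IRF3, 0.54 for IRF7 and -0.82 for IRF8. In that fit 3885 of all genes were called higher and 3591 lower, and no IRF call changed.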
